A study of Homo sapiens with 8 samples.

Results

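The 10 genes described here encode very large structural proteins: 4 long coiled-coil proteins of the endoplasmic reticulum, the Golgi apparatus and endosomes (KTN1, GOLGB1, GOLGA4, EEA1), 2 spectrins (SPTAN1, SPTBN1), 2 nonmuscle myosin II heavy chains (MYH9, MYH10), the adhesion linker TLN1 and the plakin PLEC. All 10 were found by name among the 13471 genes of the gene table. The set was chosen by the measured values of KTN1 and SPTAN1, whose RNA was above the unprecipitated level in the hnRNP U immunoprecipitate (IP) of interphase cells and below it in that of mitotic cells. Their values for the IP and for the phase are therefore given as a description, with no test. The other 8 were added because their proteins resemble those of KTN1 and SPTAN1 in size and build, and the question was whether their mRNAs turn in the same way. They were chosen with earlier results of these data known.

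The cells were hTERT-RPE1, a line established from human retinal pigment epithelium and kept growing by telomerase. Interphase cells had been exposed to 2 mM thymidine, a block to DNA replication, for 24 h, and mitotic cells received the same block, 6 h without thymidine, and then S-Trityl-L-cysteine (STLC), which stops spindle assembly, overnight. Total RNA without IP and RNA from an IP with the anti-hnRNP U antibody 3G6 were sequenced from each phase, with 2 libraries in each of the 4 groups. The labels do not say whether the 2 libraries of a group came from separate cultures, so p-values measure only the spread between these libraries. All groups come from 1 line and the mitotic cells from a drug arrest. No control-antibody IP is used here, and RNA bound by hnRNP U cannot be told apart from RNA carried over on the beads.

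hnRNP U, also called SAF-A, is an abundant nuclear protein that binds RNA and DNA and links nuclear RNA to chromatin in interphase. It leaves the chromosomes when cells enter mitosis, when the nuclear envelope opens and nuclear proteins mix with the cytoplasm. The proteins encoded by the 10 genes act outside the nucleus. Kinectin, golgins and EEA1 form long rods that anchor motors or capture vesicles, spectrins form the meshwork under the plasma membrane, myosin II pulls on actin, and talin and plectin tie actin and intermediate filaments to adhesion sites.

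The members share long coding sequences but not their base composition. Annotated coding lengths ran from 4071 nt for KTN1 and 4233 nt for EEA1, through 5880 nt for MYH9, 5928 nt for MYH10, 6690 nt for GOLGA4, 7092 nt for SPTBN1, 7431 nt for SPTAN1, 7623 nt for TLN1 and 9777 nt for GOLGB1, to 14052 nt for PLEC. The GC content of the coding sequence was 38.3% to 41.4% in the 4 coiled-coil genes and 49.5% to 67.0% in the 6 others. The contrast is visible in 120-base stretches of a single coding exon, chosen as those whose GC content is nearest to that of the whole coding sequence (GENCODE release 29 transcripts, GRCh38). EEA1 (chr12:92852175-92852294, minus strand) stands for the AT-rich members and TLN1 (chr9:35724213-35724332, minus strand) for the GC-rich ones. Capitals mark G and C.
EEA1: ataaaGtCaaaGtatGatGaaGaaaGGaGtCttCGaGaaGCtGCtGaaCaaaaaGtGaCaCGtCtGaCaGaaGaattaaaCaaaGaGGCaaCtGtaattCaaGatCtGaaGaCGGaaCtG
TLN1: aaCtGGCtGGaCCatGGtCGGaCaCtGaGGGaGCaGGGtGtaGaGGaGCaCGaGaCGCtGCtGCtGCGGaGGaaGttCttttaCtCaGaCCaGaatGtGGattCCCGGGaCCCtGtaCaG
These stretches hold 38.3% and 57.5% G and C. The myosin heavy chains show that members of 1 family can also differ in composition: the MYH9 and MYH10 coding sequences were identical at 73.2% of 5880 aligned bases, yet had 59.2% and 49.5% GC. A 90-base stretch with an identity close to that average (MYH9 chr22:36349012-36349101 and MYH10 chr17:8623010-8623099, both minus strand) is shown with the 24 differing bases in capitals.
MYH9: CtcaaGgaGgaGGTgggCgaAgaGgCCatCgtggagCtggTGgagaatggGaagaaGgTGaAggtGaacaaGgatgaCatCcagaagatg
MYH10: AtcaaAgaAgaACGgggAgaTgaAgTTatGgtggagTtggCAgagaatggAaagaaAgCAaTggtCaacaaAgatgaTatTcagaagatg
In this stretch MYH9 had 54.4% and MYH10 40% GC.

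Values are FPKM, fragments per kilobase of transcript and number of mapped fragments in the library, as the authors deposited them, so levels can be set against each other between genes. The number of fragments behind a value is unknown. Summed over all genes, the values came to 321539 to 459661 in IP libraries but 1017308 to 1249972 in the others, and the part of this gap in the effects of the IP was not tested. Replicates of a group correlated across genes at 0.989 to 0.995 (Pearson's r on the log2 scale). Markers checked the labels: 8 of 8 mitotic genes were called higher in mitosis without IP and 6 of 8 G1/S genes lower, against 26.2% and 25.5% of all genes. Of 7 markers of differentiated retinal pigment epithelium, MITF had 9.59 FPKM and PMEL 0.114 FPKM in interphase without IP. The other 5 (RPE65, BEST1, RLBP1, TYR and TTR) were not found by name in the gene table.

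In interphase without IP, KTN1 (77.4 ± 18.6 FPKM, mean ± SD, n = 2) and MYH9 (76.6 ± 7.86 FPKM) had the highest levels of the 10, and their libraries overlapped. TLN1 followed at 26.9 ± 0.396 FPKM, SPTBN1 at 19.0 ± 1.39 FPKM and GOLGA4 at 18.7 ± 11.5 FPKM, with the GOLGA4 libraries spanning those of SPTBN1 and reaching into those of TLN1. The other 5 lay lower, from SPTAN1 at 8.20 ± 0.504 FPKM through EEA1, PLEC and MYH10 to GOLGB1 at 4.62 ± 1.65 FPKM. Within this lower group the libraries of SPTAN1 and EEA1 overlapped, as did those of EEA1 and PLEC.

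KTN1 encodes kinectin, a coiled-coil protein anchored in the endoplasmic reticulum that binds kinesin. It lies on chromosome 14 (55559072 to 55701526, plus strand). Without IP, KTN1 stood at 90.5 and 64.2 FPKM in interphase and at 80.5 and 74.4 FPKM in mitosis, so these groups overlapped. In the IP it stood at 169 and 225 FPKM in interphase and at 17.3 and 18.6 FPKM in mitosis. Both interphase IP libraries were above all libraries without IP, and both mitotic IP libraries were below them. The log2 fold change of the IP, on the scale of log2(FPKM + 1) used throughout, was 1.34 in interphase and -2.05 in mitosis, a difference of -3.39 that ranked 2 from the lowest among 13471 genes. The antisense gene KTN1-AS1 has its own interval beside KTN1 in the file and stood between 0.317 and 0.812 FPKM in the 8 libraries.

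GOLGB1 (giantin; chromosome 3, 121663199 to 121749767, minus strand) and GOLGA4 (golgin-245; chromosome 3, 37243177 to 37366751, plus strand) encode coiled-coil tethers that catch vesicles at the Golgi. GOLGB1 had 5.78 and 3.45 FPKM without IP and 16.3 and 13.9 FPKM with IP during interphase. Mitotic cells gave 6.60 and 4.98 FPKM without IP and 2.78 and 3.17 FPKM with IP. The GOLGB1 groups with and without IP did not overlap in either phase, and the order was opposite. GOLGB1 rose by 1.55 in the interphase IP (SE 0.21, limma adjusted p 0.000124) and fell by 0.76 in the mitotic IP (SE 0.21, adjusted p 0.0102). Without replicate 1 of mitosis without IP, the mitotic value of GOLGB1 was -0.59 with an adjusted p of 0.0742.

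GOLGA4 had 26.9 and 10.6 FPKM in interphase without IP, the largest ratio between replicates of any member in that group, and 43.3 and 39.6 FPKM in the IP. Mitotic levels were 22.4 and 17.2 FPKM without IP and 4.72 and 5.50 FPKM with IP. The interphase IP libraries were thus the highest and the mitotic IP libraries the lowest of the 8. GOLGA4 rose by 1.24 in the interphase IP (SE 0.33, adjusted p 0.00807) and fell by 1.76 in the mitotic IP (SE 0.33, adjusted p 0.00153). The interphase value was 1.88 without replicate 1 and 0.61 without replicate 2 of the libraries without IP, and was called in both cases. The GOLGA4 difference between phases, -3 (SE 0.47, adjusted p 0.0011), ranked 6 from the lowest among all genes, the nearest of the 8 tested members to KTN1 and SPTAN1.

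EEA1 (chromosome 12, 92770637 to 92929331, minus strand) encodes the early endosome antigen, a tether for endosome fusion, and was the exception among the members. It had 9.47 and 6.41 FPKM without IP and 27.1 and 27.2 FPKM with IP in interphase, and rose by 1.68 (SE 0.15, adjusted p 1.07e-05). In mitotic cells EEA1 had 8.69 and 8.71 FPKM without IP and 9.17 and 9.27 FPKM with IP. The mitotic log2 fold change of EEA1 was 0.08 (95% interval -0.27 to 0.42, adjusted p 0.689), so neither enrichment nor depletion was called. The effect of the IP still differed between phases, by -1.60 (SE 0.21, adjusted p 0.000497). With trends of transcript length and GC content removed, the mitotic value of EEA1 turned to -0.73 (adjusted p 0.00211), and the difference was -0.91 (adjusted p 0.00737).

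**Figure D1:**
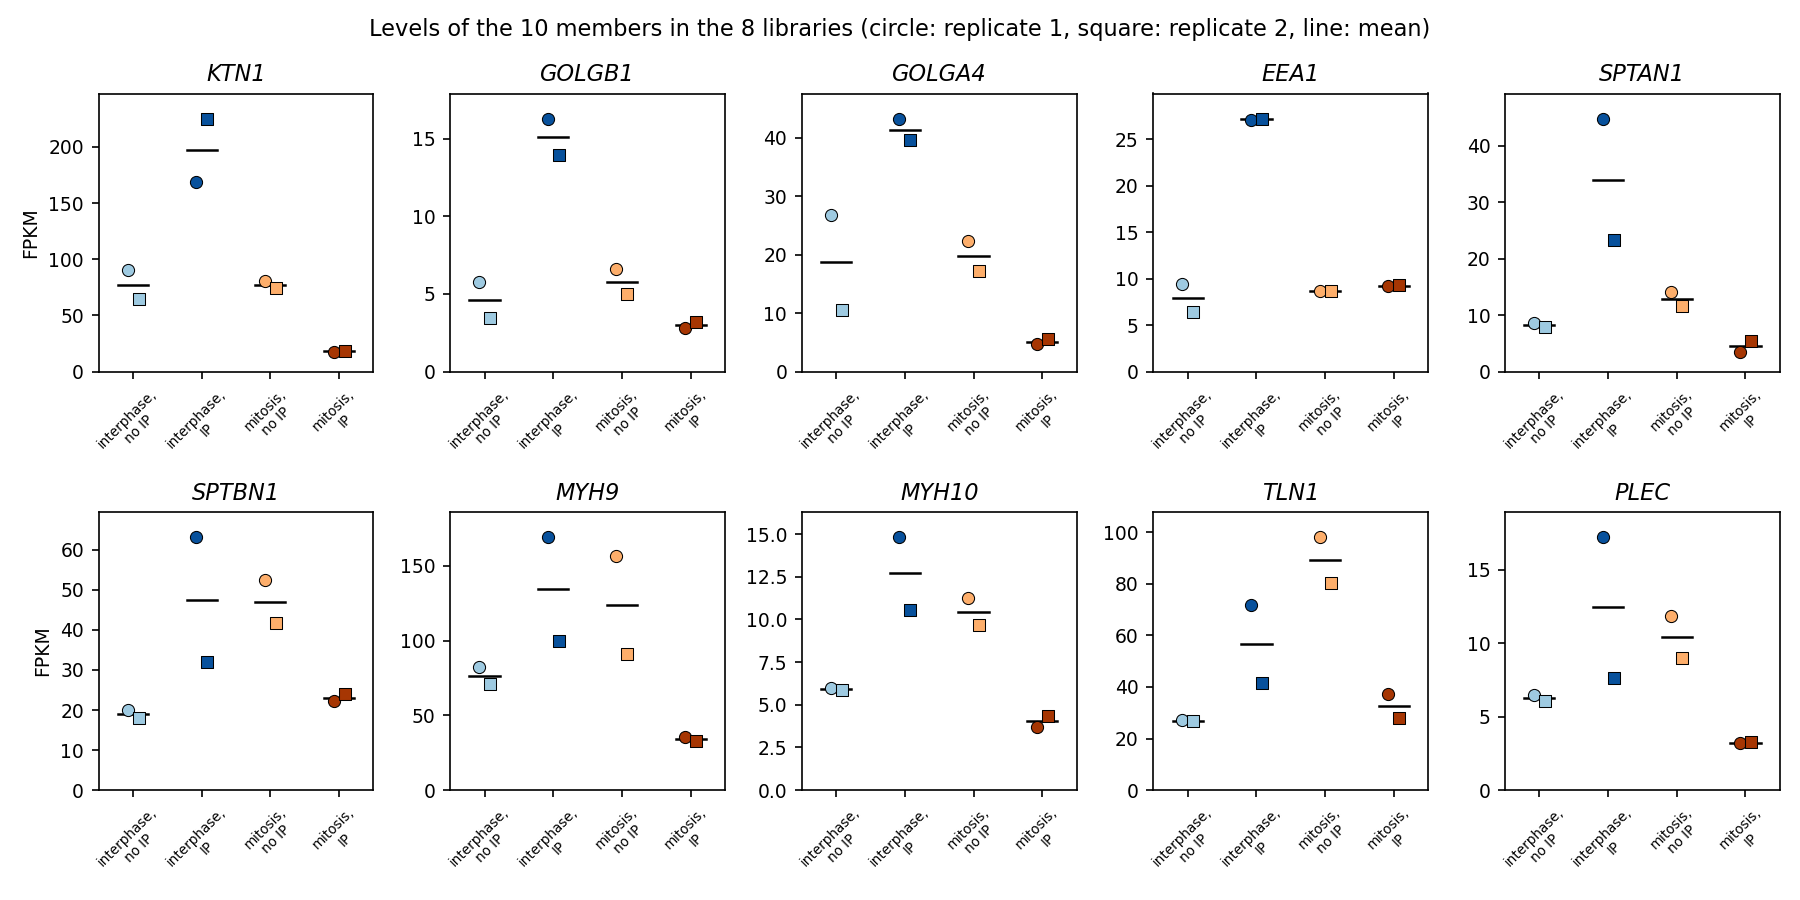
FPKM of each member (vertical axes, linear from 0) in the 4 groups; circles are replicate 1, squares replicate 2 and lines the mean of both. For 9 of the 10 genes the interphase IP lies above and the mitotic IP below the libraries of the same phase without IP. These 9 include KTN1 and SPTAN1, whose values chose the set. The share of all genes with such an order was not counted. EEA1 has 9.17 and 9.27 FPKM in the mitotic IP, close to its 8.69 and 8.71 FPKM without IP.

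The spectrins form the rod-shaped tetramers of the membrane skeleton, with SPTAN1 as the alpha chain (chromosome 9, 128552558 to 128633662, plus strand) and SPTBN1 as a beta chain (chromosome 2, 54456285 to 54671445, plus strand). SPTAN1 had 8.55 and 7.84 FPKM without IP and 44.7 and 23.2 FPKM with IP during interphase. The mitotic libraries had 14.1 and 11.5 FPKM without IP and 3.53 and 5.38 FPKM with IP. For SPTAN1 the IP effect was 1.86 in interphase and -1.35 in mitosis, and the difference of -3.21 ranked 3 from the lowest of all genes. Its partner SPTBN1 had 20 and 18.1 FPKM without IP and 63.2 and 32.0 FPKM with IP in interphase, a rise of 1.2 (SE 0.26, adjusted p 0.0026) that was 0.72 without replicate 1 of the IP. In mitosis SPTBN1 had 52.4 and 41.7 FPKM without IP and 22.2 and 23.9 FPKM with IP, and fell by 0.99 (SE 0.26, adjusted p 0.00911). The difference for SPTBN1 was -2.19 (SE 0.37, adjusted p 0.00156). Without replicate 1 of mitosis without IP, its mitotic value was -0.83 with an adjusted p of 0.059.

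The file gives SPTAN1 an interval (128340559 to 128662136) that it shares with 6 neighbouring genes, CERCAM, GLE1, ODF2, SLC27A4, URM1 and WDR34, so reads may have been divided among them. None of these 6 was called higher in the interphase IP. Their log2 fold changes in the interphase IP ran from -2.70 for WDR34 to 0.07 for GLE1, and ODF2 was the only one with a difference between phases called lower (-1.42, adjusted p 0.000281).

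MYH9 (chromosome 22, 36281277 to 36388067, minus strand) and MYH10 (chromosome 17, 8474205 to 8630761, minus strand) encode the heavy chains of nonmuscle myosin IIA and IIB, which drive the contractile ring of dividing cells. MYH9 had 82.2 and 71.0 FPKM without IP and 169 and 99.8 FPKM with IP in interphase, and 157 and 90.8 FPKM without IP and 35.8 and 33.1 FPKM with IP in mitosis. It rose by 0.76 in the interphase IP (SE 0.28, adjusted p 0.0363) and fell by 1.76 in the mitotic IP (SE 0.28, adjusted p 0.000576). The interphase call for MYH9 was lost without replicate 1 of the interphase IP (0.38, adjusted p 0.264) and without either interphase library without IP (0.86 and 0.65, adjusted p 0.0663 and 0.145). The difference between phases of MYH9 was -2.52 (SE 0.40, adjusted p 0.00115).

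MYH10 was among the lower members, with 6.00 and 5.86 FPKM without IP and 14.8 and 10.6 FPKM with IP during interphase. Its mitotic levels were 11.3 and 9.66 FPKM without IP and 3.72 and 4.34 FPKM with IP. MYH10 rose by 0.97 in the interphase IP (SE 0.16, adjusted p 0.000515) and fell by 1.19 in the mitotic IP (SE 0.16, adjusted p 0.000214), with a difference of -2.15 (SE 0.23, adjusted p 0.000172). The interphase value of MYH10 was 0.54 (adjusted p 0.0133) with length and GC trends removed, and 0.34 and not called (adjusted p 0.0517) when trends with coding length, UTR length and GC content were removed, an alternative added after seeing the data. How reads that match both genes were assigned is not given in the sources used here.

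TLN1 (chromosome 9, 35696948 to 35732395, minus strand) encodes talin-1, which couples integrins to actin. It had 27.2 and 26.6 FPKM without IP and 71.7 and 41.5 FPKM with IP in interphase, a rise of 0.99 (SE 0.24, adjusted p 0.00435) that was 0.61 without replicate 1 of the IP. The mitotic values were 98.0 and 80.4 FPKM without IP and 37.1 and 27.8 FPKM with IP, a fall of 1.44 (SE 0.24, adjusted p 0.000673). TLN1 was the member whose RNA without IP rose most in mitosis, and its mitotic IP libraries lay above its interphase libraries without IP. The difference between phases was -2.43 (SE 0.34, adjusted p 0.000573). TLN1 shares its file interval with CREB3 and GBA2, so reads may have been divided among them. The log2 fold changes of CREB3 and GBA2 in the interphase IP were -1.57 and -1.33, of opposite sign to that of TLN1. In the mitotic IP they were 0.90 and -0.99. The difference between phases was 2.47 for CREB3 (adjusted p 5.28e-05) and 0.34 for GBA2 (adjusted p 0.179).

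PLEC (chromosome 8, 143915147 to 143976734, minus strand) encodes plectin, a giant linker of intermediate filaments, and had the highest coding GC content of the set (67.0%). It had 6.47 and 6.04 FPKM without IP and 17.2 and 7.65 FPKM with IP in interphase, so replicate 2 of the IP lay only slightly above the libraries without IP. Mitotic cells had 11.8 and 9.01 FPKM without IP and 3.18 and 3.29 FPKM with IP. PLEC rose by 0.79 in the interphase IP (SE 0.29, adjusted p 0.034) and fell by 1.42 in the mitotic IP (SE 0.29, adjusted p 0.00235), with a difference of -2.21 (SE 0.41, adjusted p 0.00253). The interphase value was 1.33 without replicate 2 of the IP, and the call was lost without replicate 1 of the interphase IP (0.26, adjusted p 0.219) and without either interphase library without IP (0.83 and 0.75, adjusted p 0.083 and 0.113).

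**Figure D2:**
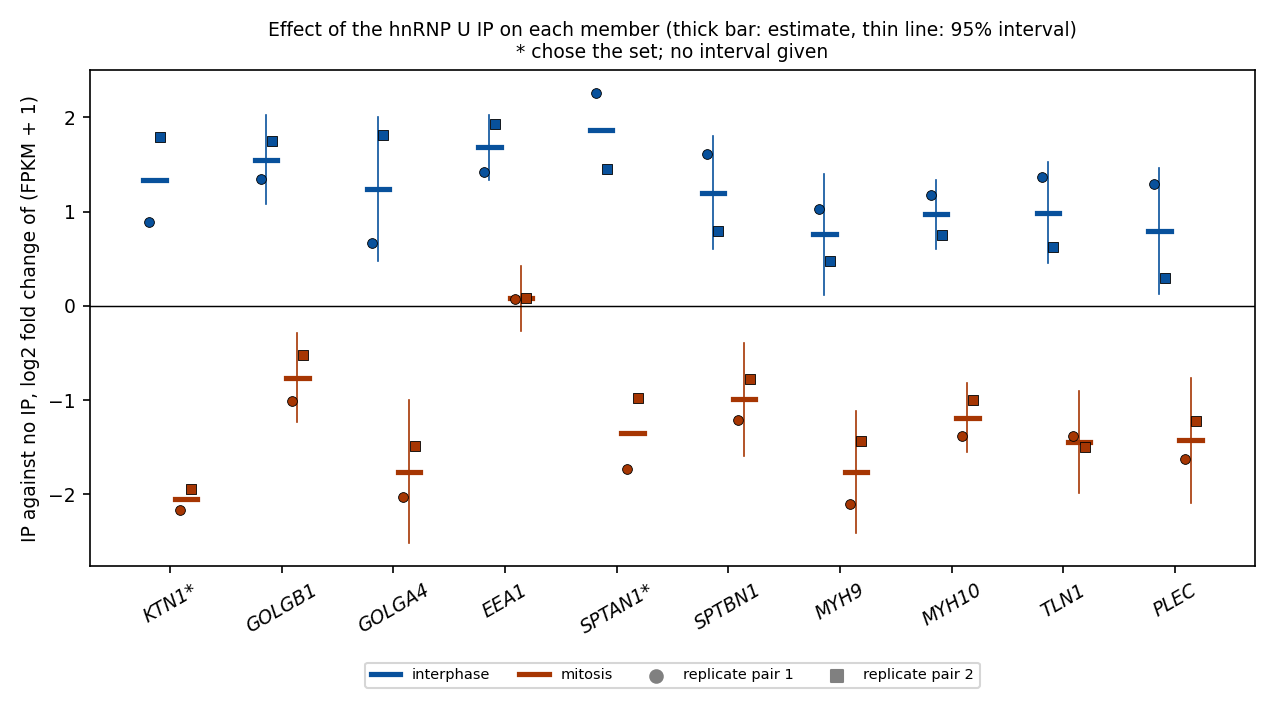
Log2 fold change of (FPKM + 1) for IP against no IP (vertical axis) for each member in interphase (blue) and mitosis (brown); thick bars are estimates, thin lines 95% limma intervals of the 8 tested members, circles and squares the 2 replicate pairs. Interphase estimates lie between 0.76 and 1.86 and mitotic ones between -2.05 and 0.08, with EEA1 as the 1 gene whose mitotic estimate is not below 0.

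Counted over the 8 tested members, 8 were called higher in the interphase IP and 0 lower, against 37.6% and 37% of all genes. In the mitotic IP 7 were called lower and 0 higher, against 31.7% and 32.8% of all genes. All 8 had a lower effect of the IP in mitosis than in interphase, which was called for 19.9% of all genes. Both calls together, higher in the interphase IP and lower in the mitotic IP, were made for 7 of the 8, and for 502 of 13471 genes (3.73%). The median difference between phases was -2.26 over the 8 members (range -3 to -1.60) and 0.07 over all genes. With length and GC trends removed, 5 of the 8 were still called higher in the interphase IP, and the 3 AT-rich ones were not: GOLGB1 had 0.41 (adjusted p 0.106), GOLGA4 0.014 (adjusted p 0.974) and EEA1 0.18 (adjusted p 0.298). KTN1, also AT-rich and untested, had 0.08 in place of 1.34. All 8 differences between phases stayed called lower under that setting.

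The 2 quantities behind the turn, RNA level and IP level, are given apart. In bulk RNA, a change in the share of cells that hold an RNA and a change in its amount per cell cannot be told apart. Without IP, 3 of the 8 were called higher in mitosis (26.2% of all genes) and 0 lower: SPTBN1 by 1.25 (SE 0.26, adjusted p 0.00409), MYH10 by 0.72 (SE 0.16, adjusted p 0.00566) and TLN1 by 1.69 (SE 0.24, adjusted p 0.000582). The MYH10 value was 0.23 and not called (adjusted p 0.178) with coding length, UTR length and GC trends removed. MYH9 (0.64, adjusted p 0.0906) and PLEC (0.64, adjusted p 0.0944) did not pass, although their groups did not overlap. MYH9 had 0.25 without replicate 1 and 1.03 without replicate 2 of mitosis without IP, the latter called (adjusted p 0.0202), and PLEC was called without either interphase IP library (0.64, adjusted p 0.00755 and 0.00718). The AT-rich members were not called, with 0.30 for GOLGB1 (95% interval -0.18 to 0.77), 0.20 for GOLGA4 (-0.56 to 0.96) and 0.14 for EEA1 (-0.21 to 0.49). These values depended on replicate 1 of interphase without IP. With that library left out they were higher, at 0.60 for GOLGB1, 0.84 for GOLGA4 and 0.39 for EEA1. The 2 replicate pairs gave 0.16 and 0.43 for GOLGB1. They differed in sign for GOLGA4 (-0.25 and 0.65) and for EEA1 (-0.11 and 0.39).

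Within the IP, by contrast, all 8 were called lower in mitosis than in interphase, against 25.6% of all genes. The fall was 2.80 for GOLGA4 (SE 0.33, adjusted p 0.000113), 2.02 for GOLGB1 (SE 0.21, adjusted p 4.8e-05) and 1.46 for EEA1 (SE 0.15, adjusted p 5.15e-05). It was 1.89 for MYH9, 1.57 for PLEC and 1.43 for MYH10 (adjusted p 0.000441, 0.00149 and 8.12e-05). It was smallest for SPTBN1 (0.94, SE 0.26, adjusted p 0.0127) and TLN1 (0.75, SE 0.24, adjusted p 0.0229), the 2 whose RNA without IP rose most. The TLN1 call was lost without replicate 1 of the interphase IP (-0.36, adjusted p 0.145) and without replicate 2 of the mitotic IP (-0.54, adjusted p 0.129), and that of SPTBN1 without replicate 1 of the mitotic IP (-0.88, adjusted p 0.0542). Without replicate 1 of the interphase IP, SPTBN1 had -0.46 and PLEC -1.03, and without its replicate 2 SPTBN1 had -1.42 and TLN1 -1.13. KTN1 and SPTAN1, untested, had 0.02 and 0.58 without IP and -3.37 and -2.63 within the IP.

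The replicates of the 2 kinds of member also differed in different groups. In the interphase IP, replicate 1 was 1.40 to 2.25 times replicate 2 for the 6 spectrin, myosin, talin and plectin genes, and 0.751 to 1.17 times for the 4 coiled-coil genes. In interphase without IP the order was the other way: 1.02 to 1.16 times for the 6 and 1.41 to 2.54 times for the 4. The quartiles of the same ratio over all genes, computed on FPKM + 1, were 0.901 and 1.11 in the interphase IP and 0.938 and 1.09 without IP. The 2 kinds of member differ in coding GC content as given above, and its part in these replicate differences was not tested.

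Across 12119 genes with an annotated coding sequence, the difference between phases was lower for longer genes. Its Spearman correlation was -0.426 with coding length, -0.51 with the length of the longest transcript and 0.43 with GC content, across genes, which are not independent replicates. In 6 classes of coding length, up to 999 nt, then from 1002, 2001, 3000, 4002 and 6000 nt upward, the median difference was 0.45, 0.12, -0.13, -0.31, -0.49 and -0.76. The share of genes with a difference called lower was 9.93%, 17.3%, 28.6%, 40.4%, 49.6% and 62% in the same order. The turn by both calls was made for 1.12%, 2.43%, 5.52%, 10.7%, 13.7% and 18.5% of genes, the last being 61 of 329. The 8 tested members, all in the longest 2 classes, were below both medians. Among genes coding for at least 4000 nt, those with 55% GC or more had a median interphase effect of the IP of -0.06, whereas MYH9, TLN1 and PLEC in that range had 0.76, 0.99 and 0.79. Those under 40% GC had a median mitotic effect of 0.14. Of the tested members in that range, GOLGA4 had -1.76 and EEA1 0.08. KTN1, also in that range, had -2.05, a value that chose the set. When trends with coding length, UTR length and GC content were removed, the difference stayed called lower for 7 of the 8 members, between -2.15 for MYH9 and -1.21 for GOLGB1, and not for EEA1 (-0.47, adjusted p 0.0807).

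**Figure D3:**
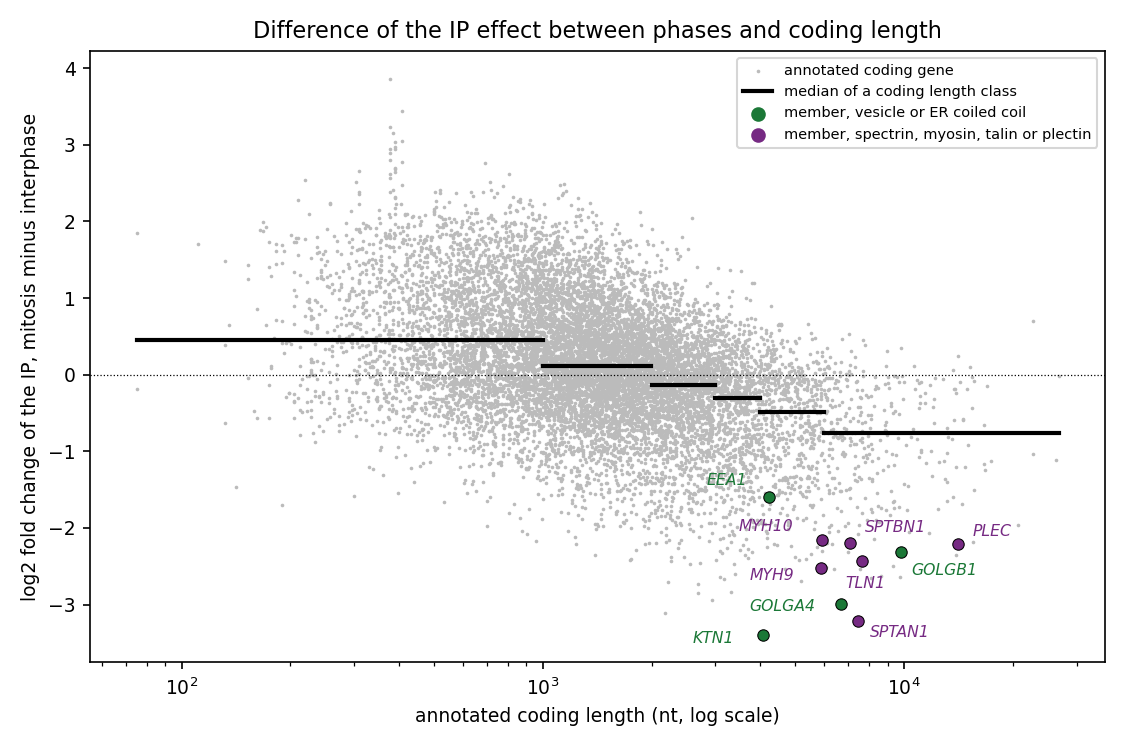
Difference of the IP effect between phases (mitosis minus interphase, log2, vertical axis) against annotated coding length (nt, log axis) for 12119 genes in grey, with the median of each of 6 length classes as a black bar and the 10 members in colour. Class medians go from 0.45 for the shortest to -0.76 for the longest coding sequences, and all members lie lower, between -1.60 and -3.39.

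Related genes were taken from 7 lists of partners and relatives of the members. Over all genes, a difference between phases was called lower for 19.9% and higher for 27.2%, with a median of 0.07. The list counts are set beside these shares, which do not account for coding length. Among genes coding for at least 6000 nt, 62% were called lower, with a median of -0.76. The lists mix short and long coding sequences, such as 453 nt for MYL6 and 26391 nt for SYNE1, and shares matched for length were not computed. Among 18 centrosomal coiled-coil genes, 15 had a difference between phases called lower and 0 higher (19.9% and 27.2% of all genes), with a median of -1.68. PCM1, a scaffold of centriolar satellites, was the lowest (-2.52, adjusted p 4.83e-05), with means of 9.87 FPKM without and 24.4 FPKM with IP in interphase, and 24.5 and 9.43 FPKM in mitosis. AKAP9, which anchors kinases at the centrosome, had -2.07 (adjusted p 0.000429), and CEP250, a centriole linker, was highest at 0.23 (adjusted p 0.545), which was 0.94 and called higher (adjusted p 0.014) with coding length, UTR length and GC trends removed. With length and GC trends removed, the interphase value of PCM1 was near 0 (adjusted p 0.979) and that of AKAP9 0.34 (adjusted p 0.146). Of 19 other golgins and vesicle tethers, 14 were called lower and 3 higher (19.9% and 27.2% of all genes), with a median of -1.10. TRIP11, the golgin GMAP-210, was lowest (-2.13, adjusted p 0.000407), and GORASP2, a Golgi stacking protein, was highest (1.26, adjusted p 0.000193). RUFY1, an endosomal protein, had the lowest interphase effect of this list (-1.07) and -1.36 in mitosis, a difference of -0.29 (adjusted p 0.464). The interphase value of TRIP11 was -0.34 (adjusted p 0.143) with length and GC trends removed.

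Of 21 other focal adhesion and actin linkers, 15 were called lower and 3 higher (19.9% and 27.2% of all genes), with a median of -0.92. IQGAP1, a scaffold that binds actin, had -2.38 (adjusted p 6.6e-05), with means of 19.9 FPKM without and 71.6 FPKM with IP in interphase, and 26.1 and 17.1 FPKM in mitosis. ZYX, encoding the adhesion protein zyxin, had 1.30 (adjusted p 0.00139). LIMS1, an adaptor of integrin-linked kinase, rose with the IP by 1.93 in interphase and 1.34 in mitosis. BCAR1, the adhesion scaffold p130Cas, fell by 1.88 in the interphase IP and by 1.16 in the mitotic IP, a difference of 0.72 that was not called (adjusted p 0.0904). Without replicate 1 of the interphase IP the BCAR1 difference was 1.03 (adjusted p 0.0196). Of 14 genes in the list of other plakins and giant linkers, 7 were called lower and 0 higher (19.9% and 27.2% of all genes). The list median was -0.82. This list also holds genes of SUN proteins and intermediate filaments, which are neither, and none of these was called in the planned test. DSP, encoding desmoplakin, had the lowest value (-2.62, adjusted p 0.000375), while DST, encoding the plakin dystonin, rose by 1.97 in the interphase IP and by 0.80 in the mitotic IP, the latter not called with length and GC trends removed (0.19, adjusted p 0.351). SUN2, a protein of the inner nuclear membrane, had the highest difference of this list at 0.45 (adjusted p 0.0751), with -1.03 in interphase and -0.58 in mitosis. The SUN2 difference was 0.63 and called (adjusted p 0.0163) without replicate 1 of the interphase IP.

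Of 13 other spectrin-skeleton genes, 7 were called lower and 1 higher (19.9% and 27.2% of all genes), with a median of -0.76. The latter was DMTN (0.40, adjusted p 0.0355), named after its value was seen because its mean lay under 1 FPKM. ADD3, which caps the actin of the spectrin meshwork, had -1.84 (adjusted p 8.08e-05). The mitotic effect of ADD3, -0.28, lay at the edge of the threshold (adjusted p 0.0523). It was called lower without either interphase IP library (adjusted p 0.0304), with quantile scaling (-0.45, adjusted p 0.00614) and with length and GC trends removed (-0.77, adjusted p 0.000169). EPB41L5, a relative of protein 4.1, had the highest difference among genes with a mean of at least 1 FPKM (0.12, adjusted p 0.624) and rose by 1.21 and 1.33. The EPB41L5 difference was 0.54 (adjusted p 0.0291) with length and GC trends removed. The list of kinesin-1 and endoplasmic reticulum proteins held 9 measured genes. Of these, 4 were called lower and 3 higher (19.9% and 27.2% of all genes), with a median of -0.29. The count called higher is near the share over all genes. RRBP1, another ER coiled-coil protein that binds ribosomes, had -2.94 (adjusted p 6.43e-05), with means of 14.1 FPKM without and 33.2 FPKM with IP in interphase, and 37.5 and 10.3 FPKM in mitosis. KIF5B, the kinesin-1 heavy chain, had -1.93 (adjusted p 0.00016), and its light chain gene KLC2 had 1.23 (adjusted p 0.00174). The turn by both calls was made for 2 of 9 ER and kinesin genes and 3 of 19 golgins and tethers. It was made for 3 of 13 spectrin-skeleton genes, 5 of 21 adhesion linkers, 2 of 14 plakin-list genes and 5 of 18 centrosomal genes. Over all genes the share was 3.73%. The mitotic call of KIF5B was lost without replicate 1 of mitosis without IP (-0.33, adjusted p 0.16) and without replicate 2 of the mitotic IP (-0.31, adjusted p 0.155).

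**Figure D4:**
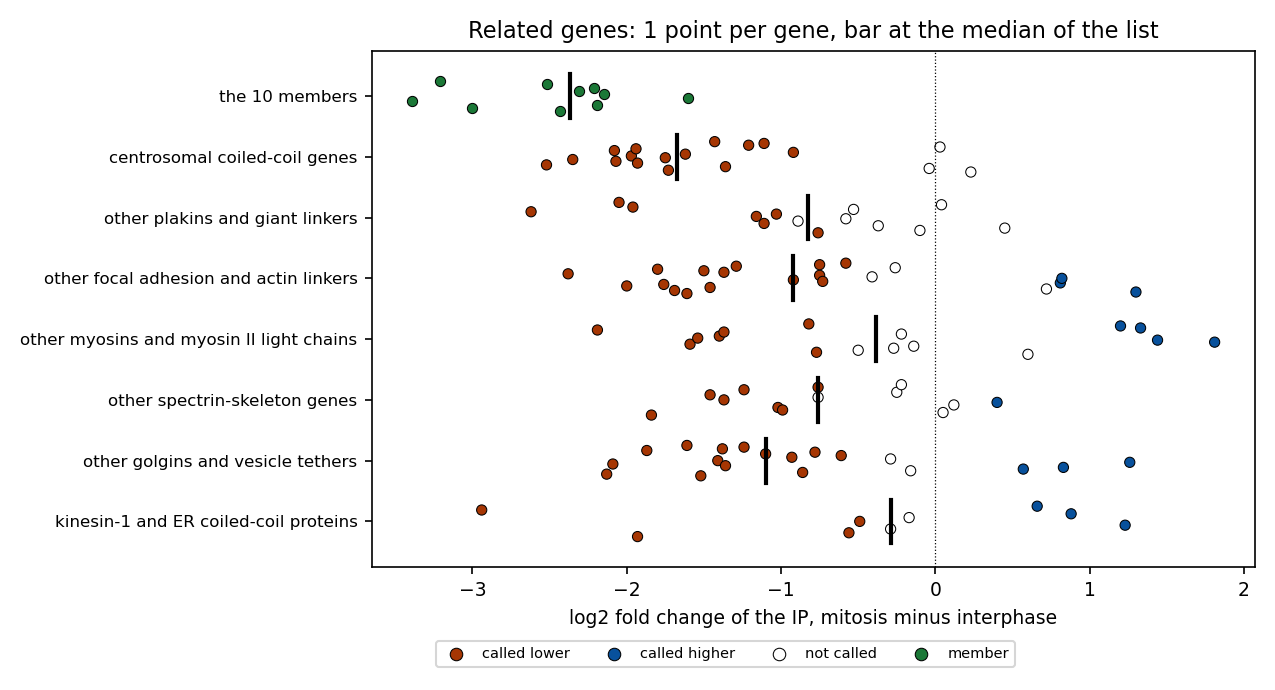
Difference of the IP effect between phases (mitosis minus interphase, log2, horizontal axis) for each gene of the 7 related lists and for the 10 members, 1 point per gene; brown points were called lower, blue called higher, white not called, green are the members, and bars mark list medians. The centrosomal list has the lowest list median at -1.68, and the myosin list holds points on both sides of 0.

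Of 16 genes in the myosin list, 7 were called lower and 4 higher (19.9% and 27.2% of all genes), with a median of -0.39. The count called higher is about the share over all genes, and 1 of 16 turned by both calls, against 3.73% of all genes. The unconventional myosin MYO1E was lowest (-2.19, adjusted p 5.39e-05). The light chains that bind the MYH9 and MYH10 heavy chains lay on the other side. MYL6 fell by 2.78 in the interphase IP, from 1680 to 245 FPKM, and by 1.34 in the mitotic IP, from 1410 to 557 FPKM, a difference of 1.44 (adjusted p 0.0101). MYL12B fell by 2.35 and by 0.54, a difference of 1.81 (adjusted p 0.000129). The remaining pair was looked up after their values were seen: MYL12A had a difference of 1.33 (adjusted p 0.00059) and MYL9 of 0.60 (adjusted p 0.232). Light chain coding lengths were 453 to 516 nt. With length and GC trends removed, the differences were 1.09 for MYL12B, 0.76 for MYL12A, 0.73 for MYL6 (adjusted p 0.069) and 0.01 for MYL9, against -2.57 for MYH9 and -1.84 for MYH10, and the mitotic fall of MYL12B was not called (-0.22, adjusted p 0.137). With quantile scaling the mitotic value of MYL6 was -0.36 (adjusted p 0.324). Whether heavy and light chains differ was not tested.

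Genes with the most similar pattern were found by the root mean square difference of centred log2 values over the 8 libraries, among 8031 other genes with a mean of at least 5 FPKM. Nearest to KTN1 were RBBP8 (0.241), GOLGA4 (0.328), NAP1L1 (0.392), TFDP1 (0.398) and IFT57 (0.419). Of these, RBBP8, NAP1L1, TFDP1 and IFT57 have coding lengths of 2691, 1173, 1230 and 1287 nt, shorter than that of any member. Nearest to SPTAN1 were PRPF8 (0.312), TPR (0.319), FASN (0.324), SNRNP200 (0.326) and SENP6 (0.332). PRPF8, TPR, FASN and SNRNP200 have coding lengths of 6408 to 7533 nt, and SENP6 has 3315 nt, again shorter than any member. GOLGB1 ranked 8 in likeness to SPTAN1, while TLN1 was the member least like both, at rank 1536 for KTN1 and 887 for SPTAN1.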

How the data were processed

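RNA from hTERT-RPE1 cells was measured in 8 libraries. The authors deposited FPKM values per gene, with a column for each library, per the file headers, and the gene table was made on hg38. TopHat and StringTie are named in the submitters' processing notes, without version, role or order, and the libraries were directional and depleted of rRNA, per the labels' protocols. The treatment of reads shared by genes and the use of strand are not given in the sources used here. The 6 ratio columns the authors deposited are quotients of FPKM columns and matched recomputed quotients to a relative deviation of 4.1e-13. The lncRNA table carries no gene names and was not used.

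The members and gene lists were chosen with earlier results of these data known. Gene names were matched to GENCODE release 29 (12678 by symbol, 447 by RefSeq synonym, 346 unmatched), which gave transcript and coding lengths and GC content. Coding features come from the APPRIS principal transcript with the longest coding sequence. No protein sequences were used. MYH9 and MYH10 were aligned with Biopython 1.88.

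The planned test was used: limma 3.58.1 in R 4.3.3 (lmFit, eBayes with trend) on log2(FPKM + 1) over all 13471 genes, 1 coefficient per group, 4 residual degrees of freedom, without filter or replicate block. P-values were adjusted over all genes by the Benjamini-Hochberg method, and genes under 0.05 were called. The script was tested on simulated data. Depth is unknown, so no counting interval is given. Besides the 10 members, the text names from each list the highest and lowest gene for the difference between phases and for the interphase effect, among genes with a mean of at least 1 FPKM, and the 5 genes most like KTN1 and SPTAN1. Alternatives were another pseudocount, a filter, quantile and median scaling, the block, no variance trend, removal of length and GC trends (mgcv 1.9.3), and leaving out each library.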

Additional observations from a re-analysis of the deposited data

Results flagged for a closer look

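Each result below had an effect of the IP that differed between mitosis and interphase by the limma interaction test, and each value is that difference on the log2 scale, mitosis minus interphase. Among the members, the difference was -2.31 for GOLGB1, -3 for GOLGA4, -1.60 for EEA1, -2.19 for SPTBN1, -2.52 for MYH9, -2.15 for MYH10, -2.43 for TLN1 and -2.21 for PLEC. EEA1 was the 1 member without a called depletion in the mitotic IP.

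Among related coiled-coil genes, the difference was -2.94 for RRBP1, -1.93 for KIF5B, -2.13 for TRIP11, -1.36 for HOOK3, -2.52 for PCM1, -2.07 for AKAP9 and -0.92 for CEP164. HOOK3, an adaptor for dynein, rose with the IP by 2.31 in interphase and by 0.96 in mitosis, and the latter was not called with length and GC trends removed (0.24, adjusted p 0.12). Opposite values were found for KLC2 (1.23) and GORASP2 (1.26).

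Among related skeletal and adhesion genes, the difference was -1.84 for ADD3, -0.76 for EPB41L1, -2.19 for MYO1E, -1.59 for MYO6, -2.38 for IQGAP1, -0.58 for LIMS1, -2.62 for DSP and -1.16 for DST. It was above 0 for MYL12B (1.81), MYL6 (1.44) and ZYX (1.30). With length and GC trends removed, the limma calls were lost for LIMS1 (-0.26, adjusted p 0.172), DST (-0.61, adjusted p 0.0644) and MYL6 (0.73, adjusted p 0.069), and DST had -0.068 (adjusted p 0.8) with coding length, UTR length and GC trends removed.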

How the results depend on the processing

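Over 17 alternatives, all 8 tested members kept a lower effect of the IP in mitosis by limma, except EEA1 with coding length, UTR length and GC trends removed. That last alternative was chosen after seeing the data.

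The shares of all genes given above belong to the planned test, and those under the alternatives are not given here. With length and GC trends removed, members called higher in the interphase IP numbered 5, with or without the replicate block, and 4 under the added alternative. Members that turned by both calls then numbered 4, and 1 was called lower in mitosis without IP. Leaving out 1 library gave 6 to 8 called higher in the interphase IP, 5 to 7 turned and 3 to 6 higher in mitosis without IP, the last reached without replicate 1 of interphase without IP. Same-numbered libraries correlated in their deviations at 0.0883 to 0.528. The authors' ratio columns divide same-numbered libraries, but the labels do not say what a shared number marks. The replicate block gave 5 members higher in mitosis without IP, also with trends removed, by adding MYH9 and PLEC. Among related genes, the block called the differences of MYL9 (0.60, adjusted p 0.0109), BCAR1 (0.72, adjusted p 0.0232) and SUN2 (0.45, adjusted p 0.0453) and the mitotic fall of ADD3 (-0.28, adjusted p 0.0222).

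Where a value was called in the planned test or in the alternative, its sign turned only where trends were removed. The cause was not tested. Sign changes of values called in neither were not counted. In interphase, GOLGA4 had -0.066, EEA1 -0.32, KLC2 0.0013 and GORASP2 0.26 under the added alternative. TRIP11 had -0.34 and -0.85, MYO1E -0.033 and -0.30, and PCM1 -0.0031. In mitosis, EEA1 had -0.73 and -0.79, MYO6 -0.49 and -0.54, and ZYX 0.41 and 0.40. Without IP, EEA1 had -0.49. Median centring moved the all-gene median of the interphase effect from 0.017 to 0.14. Depth is unknown, so the precision of low values such as GOLGB1 cannot be given.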
